A study of Mus musculus with 2 samples.

Results

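The boundary just below En1 separated its large domain from the neighbouring domain with Steap3, C1ql2 and Marco, and the contacts described here are those that crossed it. Members were chosen by position, as all pairs of 10 kb bins on mouse chromosome 1 (mm9) with 1 end in the domain from 122050001 to 122460000 and the other in the En1 domain from 122470001 to 123090000, on either side of the boundary bin from 122460001 to 122470000. The 41 lower and 62 upper bins gave 2542 pairs, of 112575 pairs of different bins in the whole map, and their ends lay 20 to 1030 kb apart. The domain limits were themselves selected on the insulation score (150 kb window) of this same map, so fewer contacts across the boundary than inside the domains were built into the choice. The values are a description with no test.

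Capture Hi-C counts how often 2 positions of a chosen stretch of the genome are ligated to each other after fixation, and so how often they lay close together in the nucleus. Libraries came from fore- and hindlimbs of wild-type mouse embryos at E10.5, made into single cells, fixed in 2% PFA, cut with DpnII, religated and enriched with SureSelect probes. The series asks how En1 expression is maintained while the limb develops. The authors deposited 1 map, labelled wild type and merged. It was taken to hold both of the 2 samples, whose titles carry the same replicate label. There was no second genotype or stage and no separation of fore- from hindlimb. With 1 map, no value here has a replicate error.

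Mammalian chromosomes fold into topologically associating domains, within which positions touch more often than across the boundaries between them. Many boundaries carry the DNA-binding protein CTCF, and cohesin, which extrudes loops of chromatin, is often halted at CTCF sites that face it. Domains are widely held to limit which enhancers reach which promoters. En1 codes for Engrailed-1, a homeobox transcription factor that marks the ventral ectoderm of the early limb bud and directs dorsoventral patterning. Steap3 encodes a metalloreductase of endosomal iron uptake, C1ql2 a secreted protein of the C1q family, and Marco a scavenger receptor of macrophages.

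On mm9 (GENCODE M1), Steap3 (ENSMUSG00000026389.10) lies at 122087334 to 122169282 on the minus strand. C1ql2 (ENSMUSG00000036907.8) lies at 122237159 to 122239748 on the plus strand. Marco (ENSMUSG00000026390.1) lies at 122371115 to 122401661 on the minus strand. Their transcription starts were 291, 223 and 58.3 kb from the boundary bin. En1 (ENSMUSG00000058665.7), at 122498995 to 122505873 on the plus strand, started 29.0 kb from it on the other side and was the only protein-coding gene in its domain. The end of 3110009E18Rik (122017764 to 122084766, plus strand) reached into the lower domain, while its start lay below. The boundary bin held no protein-coding gene. In the En1 domain, a gene of a long non-coding RNA, B230209K01Rik, overlapped the bins from 122980001 to 123020000.

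The bins of the map were searched for the core of the CTCF motif, spelled CCANNAGNNGGC, on both strands. The matches in the bins from 122440001 to the En1 start bin and in the last 3 bins of the En1 domain are printed 5′ to 3′ on their own strand, with the core in capitals and 9 bases on each side, because these bins carry the contacts described further on.
boundary bin, plus strand, chr1:122465782-122465811: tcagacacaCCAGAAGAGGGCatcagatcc
last bin of the lower domain, minus strand, chr1:122453055-122453084: ctgtcgaggCCAGAAGAGGGCgtcagctca
next bin down, minus strand, chr1:122447006-122447035: acagtttagCCACCAGGTGGCaaagttggg
next bin down, plus strand, chr1:122447522-122447551: aaacgggatCCACAAGCAGGCagccaggca
first bin of the En1 domain, minus strand, chr1:122476095-122476124: acccttgttCCAATAGATGGCtccacacca
next bin up at 122480001, plus strand, chr1:122484890-122484919: gttgtgttaCCAGCAGAAGGCcagcttggg
En1 start bin, plus strand, chr1:122497848-122497877: ccaagatgcCCAGGAGTGGGCagcaattcc
far bin at 123060001, plus strand, chr1:123063446-123063475: tgaaagaggCCAGCAGCAGGCatgggatga
far bin at 123070001, minus strand, chr1:123077076-123077105: tccaagctaCCAGAAGGTGGCgcgaattca
far bin at 123080001, minus strand, chr1:123083261-123083290: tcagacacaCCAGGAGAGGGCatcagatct
far bin at 123080001, plus strand, chr1:123087594-123087623: ctatggaggCCAGAAGAGGGCatccgactt

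Such matches were common: 198 of the 475 bins of the map (41.7%) held at least 1, as did 21 of the 41 lower bins and 26 of the 62 bins of the En1 domain. The match in the boundary bin had the same base at 24 or more of its 30 positions as 76 other matches in the map, and the minus-strand match in the far bin at 123080001 shared as many with 66. Those in the next bin down and in the far bins at 123060001 and 123070001 had 0 such relatives. A match is a description of the letters and not a site bound by CTCF, and binding was not measured here. The bins did not stand apart in DpnII sites (GATC), with 27 in the boundary bin, 28 in the last lower bin and 23 in the far bin at 123070001, against a median of 25 per bin.

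The members held 101193 read pairs, 2.55% of the 3972920 that joined different bins, and every pair had at least 2. A pair had a median of 34 and at most 404. The expected count was the mean balanced signal at the same distance over the whole map, scaled by the balancing factors of both bins, and it summed to 152884. Contacts across the boundary therefore ran at an observed/expected (O/E) ratio of 0.662 (exact Poisson 95% interval 0.658 to 0.666). This interval, like the others here, covers counting error only, since read pairs carry no molecular identifiers and embryos cannot be told apart. With an expected count from distance alone the ratio was 0.913. The members' bins were well covered, with totals of 12485 to 51135 read pairs in the lower domain and 6844 to 54423 in the En1 domain, against a map median of 22376. The 56 poorly covered bins of the map, under 25% of that median, lay elsewhere.

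**Figure D1:**
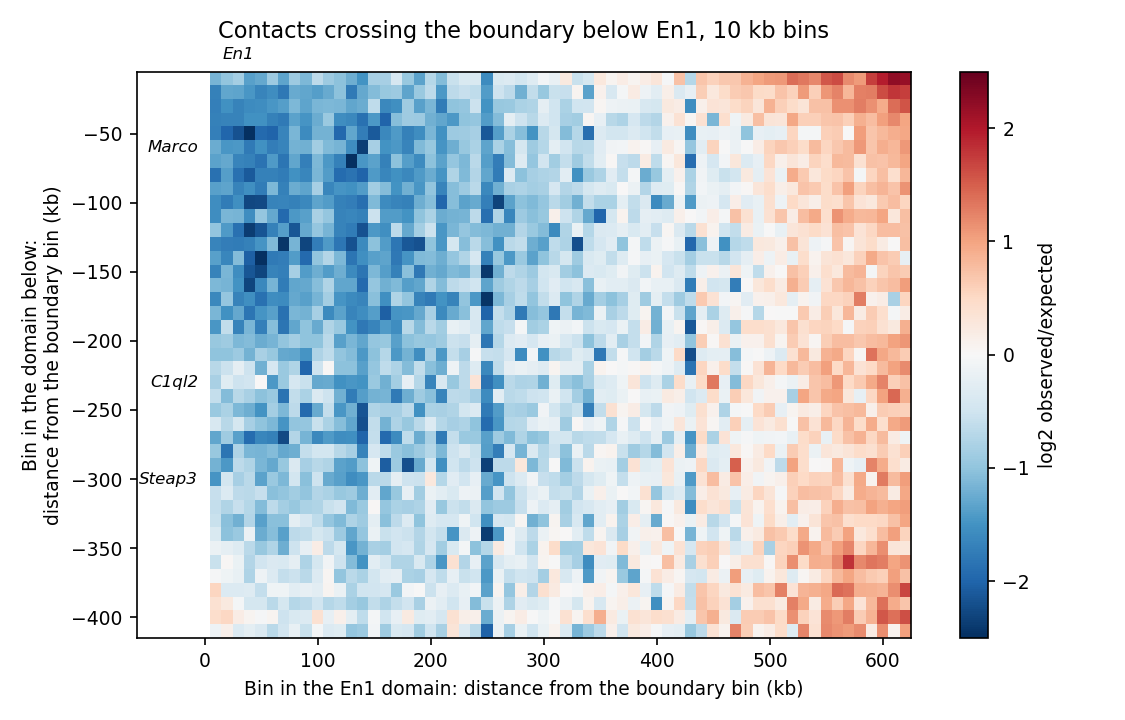
Log2 O/E of each of the 2542 crossing pairs of 10 kb bins, with the distance of the En1-domain bin from the boundary bin (kb) across and that of the lower bin (kb, negative) down; blue pairs lie below expected and red pairs above. The corner next to the boundary is blue throughout, while each column at 510 to 620 kb is mostly red, with 29 to 41 of its 41 pairs above 1, and darkest in the row next to the boundary.

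Depletion was deepest where the ends lay close together and was no longer seen at the longest separations. The O/E ratio was 0.373 (0.363 to 0.384) for the 45 pairs 20 to 100 kb apart and 0.364 (0.357 to 0.371) for the 145 pairs at 110 to 200 kb. It was 0.440 at 210 to 300 kb, 0.538 at 310 to 400 kb, 0.696 at 410 to 500 kb and 0.890 (0.876 to 0.905) at 510 to 600 kb. Pairs at 610 to 1030 kb lay above expected, at 1.29 (1.27 to 1.30) over 943 pairs, which was 3.50 times the ratio of 0.367 for pairs at 20 to 200 kb. With an expected count from distance alone the classes at 110 to 200 and 210 to 300 kb had 0.625 and 0.689. The class at 510 to 600 kb changed side, to 1.05, with an expected count from distance alone and also with the median signal per distance.

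The balanced signal of crossing pairs hardly changed beyond 310 kb. Crossing pairs had a mean KR signal (the value after Knight-Ruiz balancing, which gives every bin the same total) of 82.2 at 20 to 100 kb, 40.8 at 110 to 200 kb and 31.2 at 210 to 300 kb. From 310 kb to the longest separations the class means stayed between 25.5 and 28.2. On log scales the slope of mean KR on distance between 300 and 1000 kb was −0.05 for crossing pairs and −1.22 for the whole map. At 300 kb the crossing mean was 27.1 against 60.3 in the whole map. At 600 kb both were close, at 29.1 and 28.5. At 1000 kb, where only 4 crossing pairs exist, they were 31.6 and 13.8. In these averages by distance, the rise in ratio was thus a rise against a falling map mean, not a rise in signal. By the place of the upper end, described further on, the signal did rise again towards the far end.

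At shorter range the decline across the boundary was the steeper. From 100 to 400 kb the slope was −0.49 for crossing pairs, −0.08 inside the lower domain and −0.35 inside the En1 domain. At 50 to 300 kb, where all 3 sets have pairs, crossing pairs had an O/E ratio of 0.394 and pairs inside either domain 1.10. Relative to the expected count, crossing contacts were thus at 0.359 times the level of inside contacts. At 110 to 200 kb the lower domain had a ratio of 1.17 inside and the En1 domain 1.04. The separation between curves widened further on, since inside ratios reached 2.69 at 310 to 400 kb in the lower domain and 5.05 at 510 to 600 kb in the En1 domain.

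Pooled over the rest of the map, pairs that crossed 1 boundary had higher ratios in every distance class. Pairs elsewhere with exactly 1 boundary between their ends had O/E ratios of 0.677 at 20 to 100 kb, 0.773 at 210 to 300 kb and 1.16 at 510 to 600 kb. At 610 to 1030 kb they had 1.57, against 1.29 for the crossing pairs. Pairs with 2 boundaries between them had 0.986 there, and those with 3 or more 0.784. These sets held 1734, 7381 and 3672 pairs, so the expected count at long range rested mostly on pairs with several boundaries between them. A ratio above 1 at 610 kb or more was thus also seen elsewhere across 1 boundary, and there at a higher level than across this one.

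**Figure D2:**
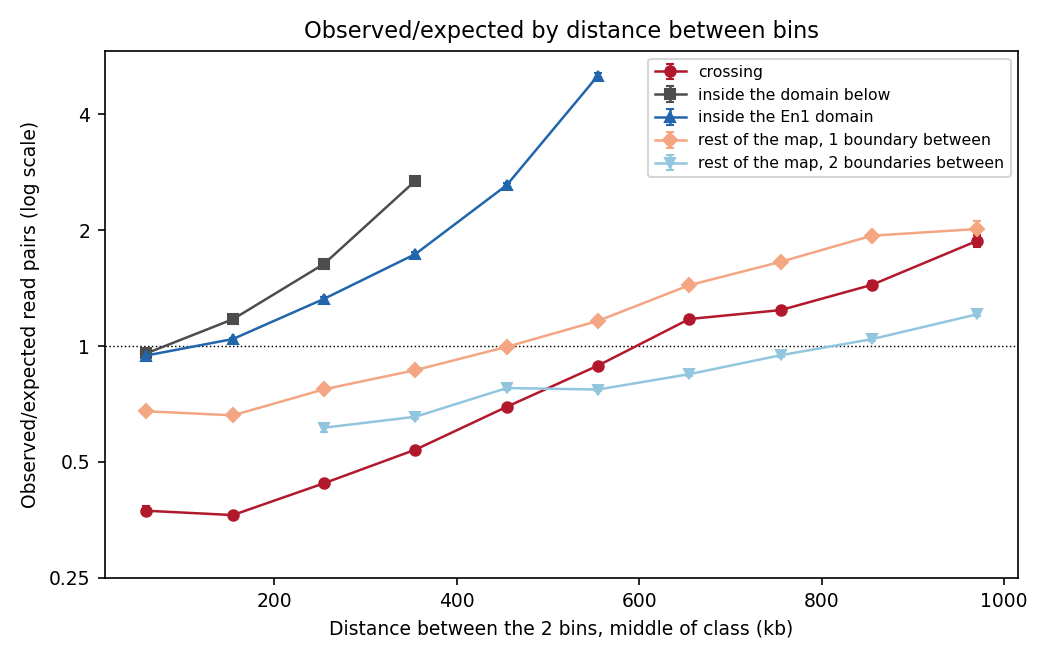
O/E ratio (log axis) by distance between the bins (kb, middle of each class) for crossing pairs, pairs inside each domain, and pairs in the rest of the map with 1 or 2 boundaries between; bars are exact Poisson 95% intervals. Crossing pairs rise from 0.373 to 1.88 and stay below the other pairs with 1 boundary at each distance, while pairs inside the En1 domain reach 5.05 at 510 to 600 kb.

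In equal windows around each boundary, this one was the strongest of the 7 compared. Pairs joining the 100 kb on its sides had an O/E ratio of 0.366. The next lowest was 0.430 at the boundary in the bin at 120980001, and the highest was 0.770 at 121900001. With 200 kb on each side the ratio was 0.382 here and 0.510 at 120980001, and with 300 kb 0.433 here and 0.525 at 123470001. Among the most distant pairs of that last window, 410 to 600 kb apart, the order was the other way, with 0.576 here and 0.523 at 123470001. Of the 900 pairs of the 300 kb window at 123470001, 60 also crossed another boundary, against 0 here. That window also held 1 poorly covered bin. The boundary bin at 123090001, which closes the En1 domain on its far side, had 0.618, 0.676 and 0.723 in these windows. The insulation score, log2 of the mean KR signal across a bin relative to the median bin, was the lowest of all well-covered bins for windows of 50, 100, 150, 200 and 300 kb, at −1.45, −1.46, −1.47, −1.38 and −1.10. With a 400 kb window it was −0.84 and the fifth lowest, with 4 bins lower, down to −0.945 at 120180001.

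Among single pairs, a pair was called below expected when the upper 95% bound of its O/E ratio was under 1. By that rule 1165 of the 2542 crossing pairs (45.8%) were below expected, against 27.7% of all map pairs at the same distances. At 20 to 300 kb the rule called 430 of 435 crossing pairs (98.9%), against 34.4% of the map. At 310 to 600 kb it called 674 of 1164 (57.9%), against 30.8%. At 610 to 1030 kb it called 61 of 943 (6.47%), against 20.1%, so that there crossing pairs were depleted less often than the map as a whole. Without poorly covered bins, of which the members have none, the map shares were 29.3% over all distances and 37.5% at 20 to 300 kb. They were then 32.0% at 310 to 600 kb and 20.6% at 610 to 1030 kb. Pairs with an upper bound under 0.5 numbered 244 (9.60%, against 2.11% of the map). Of these, 194 lay at 20 to 300 kb (44.6%, against 3.22%), 50 at 310 to 600 kb (4.30%, against 1.88%) and 0 at 610 to 1030 kb (against 1.42%).

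The lowest pairs joined bins in Marco or up to 41.1 kb from it to bins in En1 or up to 94.1 kb from it. The 4 named had the lowest upper bounds among pairs with at least 20 expected read pairs. The bin 122410001 to 122420000, 8.34 kb from Marco, and the bin 122500001 to 122510000, which holds an En1 exon, lay 90 kb apart and shared 50 read pairs where 283 were expected, a ratio of 0.177 (0.131 to 0.233). A Marco exon bin at 122390001 and the bin at 122590001, 200 kb apart, shared 35 where 201 were expected, a ratio of 0.174 (0.121 to 0.242). The bin of the Marco start and the bin at 122600001, also 200 kb apart, shared 45 where 231 were expected, a ratio of 0.195 (0.142 to 0.261). The gene-free bins at 122320001 and 122510001, 190 kb apart, shared 18 where 115 were expected, a ratio of 0.157 (0.0928 to 0.247). The mean KR signal at 200 kb, on which the expected counts of the pairs at that distance rest, was 121 over all pairs and 83.1 without poorly covered bins. On the latter their ratios were 0.253 and 0.284, and the 110 to 200 kb class had 0.396. In 25 kb bins, where each pair is averaged with its neighbours, the 4 pairs had 0.304, 0.335, 0.321 and 0.289 in the order given, and with distance alone 0.318, 0.421, 0.541 and 0.205.

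How strongly a pair was depleted depended on where its upper end lay. By distance of the upper end into the En1 domain, the O/E ratio over the whole lower domain was 0.435 at 10 to 100 kb, 0.461 at 110 to 200 kb, 0.580 at 210 to 300 kb and 0.784 at 310 to 400 kb. It was 1.04 at 410 to 500 kb and 1.63 (1.61 to 1.65) at 510 to 620 kb. By distance of the lower end from the boundary the change was smaller, from 0.594 at 10 to 100 kb and 0.592 at 110 to 200 kb to 0.722 at 210 to 300 kb and 0.897 at 310 to 410 kb. The far end of the En1 domain was thus above expected with the lower domain, while the end next to the boundary was far below.

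Each part of the lower domain had a higher ratio with the far end of the En1 domain than with the near end. Lower bins 10 to 100 kb from the boundary went from 0.366 with the nearest stretch of the En1 domain to 1.79 with the farthest, and those at 310 to 410 kb from 0.726 to 1.73. The intermediate lower bins ended at 1.41 and 1.51. With upper ends at 510 to 620 kb the ratio was therefore lowest for lower bins at 110 to 200 kb and higher both next to the boundary and at the other end of the lower domain. For the lower bins at 10 to 100 kb the mean KR signal fell from 60.7 at the nearest stretch to 31.0 at 210 to 300 kb and then rose again, over 33.4 and 36.6, to 49.9 at 510 to 620 kb. Between 210 to 300 kb and 510 to 620 kb it also rose in the other parts of the lower domain. It went from 23.2 to 31.7 for lower bins at 110 to 200 kb and from 20.9 to 28.6 at 210 to 300 kb. For those at 310 to 410 kb it went from 20.8 to 27.2. In each part, contacts with the far end were therefore more frequent than with the middle of the En1 domain, although the far end lies farther away.

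**Figure D3:**
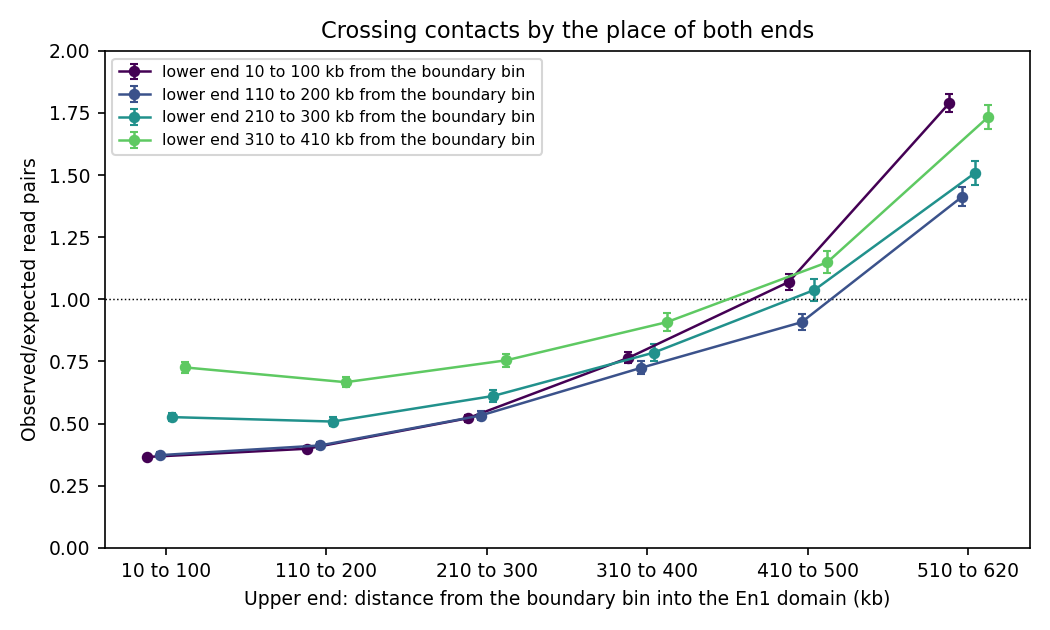
O/E ratio by distance of the upper end from the boundary bin (kb), with 1 line for each part of the lower domain; bars are exact Poisson 95% intervals. All 4 lines start between 0.366 and 0.726 at the near end of the En1 domain and end between 1.41 and 1.79 at 510 to 620 kb, and those for the lower bins at 210 to 300 and 310 to 410 kb dip first, to 0.508 and 0.666.

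At fixed distances between the ends the far end of the En1 domain was again the highest, but the values did not rise steadily towards it. Among pairs 510 to 600 kb apart the O/E ratio was 0.717 (0.687 to 0.748) with the upper end at 110 to 200 kb, 0.657 at 210 to 300 kb, 0.758 at 310 to 400 kb, 0.945 at 410 to 500 kb and 1.75 (1.70 to 1.81) at 510 to 620 kb. Among pairs 610 to 700 kb apart it was 0.811 with the upper end at 210 to 300 kb, 0.833 and 0.978 in the next stretches, and 1.66 (1.62 to 1.70) at 510 to 620 kb. Among pairs 410 to 500 kb apart it was 0.791, 0.568, 0.585, 0.718 and 1.14 from the nearest stretch outwards, so that the nearest stretch was above the 3 that followed. Among pairs 310 to 400 kb apart it was 0.578, 0.450, 0.509 and 0.790, and among those 210 to 300 kb apart 0.461, 0.398 and 0.517. At a fixed separation an upper end farther out goes with a lower end nearer the boundary, so both places change together in these values.

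Bins of the En1 domain differed more than bins of the lower domain. Summed over the whole other domain, the 62 upper bins ran from 0.350 to 1.98 with a median of 0.664, and 19 were above 1. The 41 lower bins ran from 0.490 to 1.18 with a median of 0.687, and 2 were above 1. The highest upper bins were the last of the domain, 111 to 131 kb from Insig2, the nearest protein-coding gene. Insig2 encodes an endoplasmic reticulum protein of sterol regulation. The last bin of the domain, at 123080001, had 1.98 (1.90 to 2.08) with 39 of its 41 pairs above 1. Its neighbours at 123060001 and 123070001 had 1.88 and 1.85, with 41 and 39 pairs above 1. The lowest were gene-free bins at 122600001 (0.350), 122710001 (0.353) and 122530001 (0.372), each with 0 of 41 pairs above 1.

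In the lower domain the highest bins lay at its far end. The bin 122060001 to 122070000, with an exon of 3110009E18Rik, had 1.18 (1.13 to 1.23) and 41 of 62 pairs above 1. The bin at 122080001, with exons of 3110009E18Rik and Steap3, had 1.06, and that at 122100001, in a Steap3 intron, 0.953. The lowest lay on the flanks of Marco and towards the middle of the domain, at 122410001 (0.490), 122360001 (0.492) and 122330001 (0.509). Single bins stood out from their surroundings. The bin at 122710001 had 0.353 where the bin before it had 0.668, and that at 122890001, the least covered of the members' bins with 6844 read pairs, had 0.548 (0.487 to 0.613) where the bin before it had 1.01.

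**Figure D4:**
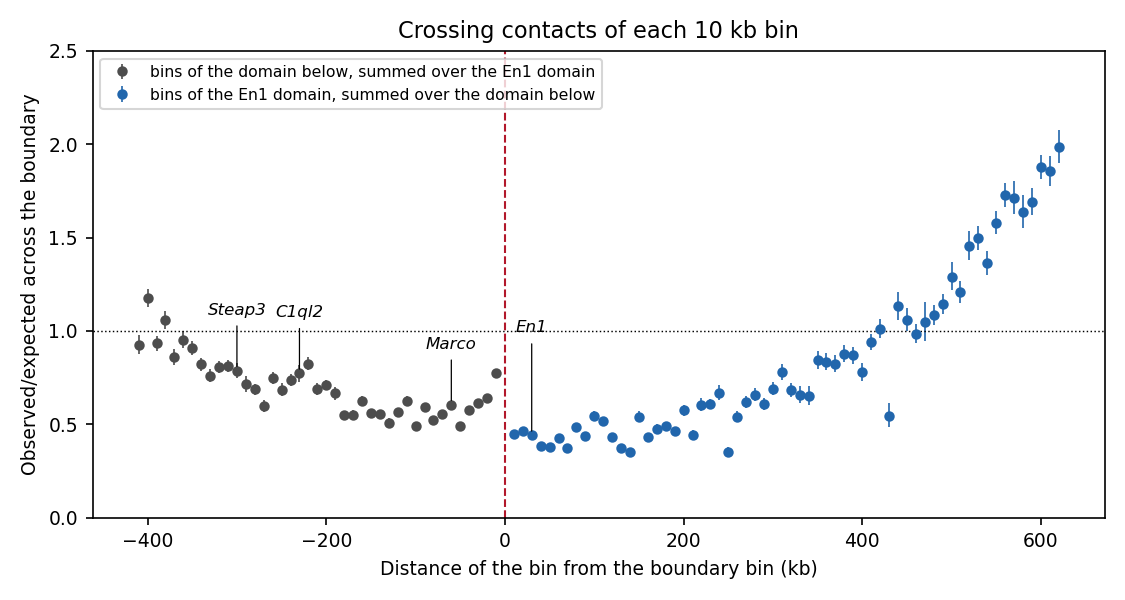
O/E ratio of each 10 kb bin with the whole other domain, against its distance from the boundary bin (kb, negative below); bars are exact Poisson 95% intervals and the gene names mark transcription start bins. Bins of the En1 domain rise from 0.350 at the lowest to 1.98 at the far end, and bins of the lower domain from 0.490 to 1.18.

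The promoter bins on both sides followed the same pattern. The Steap3 start bin had an O/E ratio of 0.788 (0.749 to 0.829) with the En1 domain, the C1ql2 start bin 0.774 (0.730 to 0.820) and the Marco start bin 0.605 (0.586 to 0.625). With the nearest 100 kb of the En1 domain they had 0.557, 0.663 and 0.376. With its far end at 510 to 620 kb all were above expected and close together, at 1.61 (1.45 to 1.79), 1.63 (1.44 to 1.84) and 1.68 (1.57 to 1.79). The En1 start bin had 0.442 (0.425 to 0.459) with the lower domain. With an expected count from distance alone C1ql2 had 0.493, Marco 0.958 and En1 0.697, so the order of these bins rests on the balancing.

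Ranked by the lower bound of the O/E ratio, the strongest partner of each of the 3 lower promoters was among the last bins of the En1 domain. Steap3 shared 64 read pairs with the bin at 123060001, a ratio of 2.48 (1.91 to 3.16). C1ql2 shared 47 with the same bin, a ratio of 2.35 (1.73 to 3.12). Marco shared 70 with the bin at 123080001, a ratio of 2.12 (1.65 to 2.68). Of 62 pairs each, the Steap3, C1ql2 and Marco bins had 7, 6 and 14 called above expected and 22, 22 and 34 below. Over the whole map 18.7% of pairs at 20 to 1030 kb were called above and 27.7% below. The En1 bin had 0 of 41 pairs called above expected and 33 called below. Its highest ratio was with the bin at 122060001, at 70 read pairs and 1.14 (0.890 to 1.44), and its ratio rose from 0.362 with the nearest 100 kb of the lower domain to 0.753 with the stretch at 310 to 410 kb.

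Contacts between promoters across the boundary were below expected. Marco and En1, 90 kb apart, shared 102 read pairs where 276 were expected, a ratio of 0.370 (0.301 to 0.449). Steap3 and En1, 330 kb apart, shared 33 where 58.3 were expected, a ratio of 0.566 (0.390 to 0.795). C1ql2 and En1, 260 kb apart, shared 35 where 50.4 were expected, a ratio of 0.695 (0.484 to 0.966). The interval of Marco and En1 overlapped that of Steap3 and En1 but not that of C1ql2 and En1.

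A pair was called above expected when it had at least 10 read pairs and a lower 95% bound of its O/E ratio above 1. Such a pair is termed an escape here, meaning only that it exceeded the count expected from the map mean at its distance. By that rule 368 crossing pairs (14.5%) escaped, against 18.7% of map pairs at the same distances, so escapes were no more common among them than in the map. With an expected count from distance alone 599 were called (23.6%, against 25.3% of the map by the same count). At 20 to 300 kb 0 of 435 were called, against 21.4% of the map. At 310 to 600 kb 60 of 1164 (5.15%) were called, against 18%. At 610 to 1030 kb 308 of 943 (32.7%) were called, against 17.1%. The map shares cover pairs with any number of boundaries between them. At 610 to 1030 kb other pairs across 1 boundary had a higher O/E ratio, at 1.57 against 1.29. A call alone thus does not set a crossing pair apart from them there. With a lower bound above 1.5 there were 90 pairs (3.54%, against 5.08%), of which 0 lay at 20 to 300 kb (against 2.66%), 18 at 310 to 600 kb (1.55%, against 6.41%) and 72 at 610 to 1030 kb (7.64%, against 5.96%). These map shares include poorly covered bins, of which the members have none. Without such bins the map shares above expected were 20.9% over all distances and 19.7% at 610 to 1030 kb. With a lower bound above 1.5 the share at 610 to 1030 kb was then 6.83%. At the threshold of 1, the pair of bins at 122120001 and 123080001 lay just inside with a lower bound of 1.001. That of 122320001 and 122990001 lay just outside with 0.999.

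Escapes gathered at the far end of the En1 domain. Of the 368 pairs, 320 had their upper end at 510 to 620 kb, where 65.0% of 492 pairs were called, and 85 of the 90 pairs above 1.5 were there too. Over the whole map the rule called 18% of pairs at 310 to 600 kb and 17.1% at 610 to 1030 kb. With a lower bound above 1.5 these map shares were 6.41% and 5.96%. In the stretch at 410 to 500 kb 42 of 410 (10.2%) were called, and over the nearer stretches together 6. Without the bins at 510 kb or more, an alternative chosen after the values were seen, 48 pairs were called and the O/E ratio of the members fell to 0.557. Grouped with others up to 2 bins away, the called pairs fell into 9 clusters, and 1 of them held 354 of the 368 pairs, while 5 were single pairs.

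The strongest escape joined the lower domain's last bin, 122450001 to 122460000, to the bin 123070001 to 123080000, 620 kb away. It held 195 read pairs against 42.1 expected, an O/E ratio of 4.64 (4.01 to 5.33), and a KR signal of 127. Its 4 combinations of 5 kb bins held 27, 41, 50 and 77 read pairs, so the excess was spread over the pair. Neighbouring pairs were nearly as high. The same lower bin had 165 read pairs and a ratio of 4.54 with the last bin of the En1 domain, and 253 read pairs and a ratio of 3.91 with the bin at 123060001. The bin before it, at 122440001, had 102 read pairs and a ratio of 3.44 with the bin at 123070001. The same cluster also held high pairs near the opposite end of the lower domain. There the bin at 122100001 had 47 read pairs and a ratio of 3.51 (2.58 to 4.66) with the bin at 123030001. The bin at 122080001 had 3.16 with the bin at 123080001, and that at 122060001 had 2.92 with the bin at 123060001.

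The excess was largest in the lower bins next to the boundary. With the En1-domain bins at 510 to 620 kb, the last lower bin had a ratio of 3.05 (2.91 to 3.20), and the bins below it 2.32, 1.96 and 1.72. The bins 50 to 100 kb from the boundary lay between 1.34 and 1.68, in no steady order. On the other side of these bins the ratio was higher still, at 4.13 (3.89 to 4.38) for the boundary bin and 6.19 for the En1 start bin, whose contact with the far end lies inside its domain. The first bin of the En1 domain, at 122470001, was lower than the boundary bin at 2.72, and the next had 5.45. Both 5 kb parts of the last lower bin showed it, with 2.40 for the part away from the boundary and 3.23 for the part next to it. With the nearest 100 kb of the En1 domain the same parts had 0.429 and 0.521. As a whole the bin had 0.478 with that near stretch, below expected but above the 0.289 to 0.380 of the 9 bins below it. Its mean KR signal was 135 with the near stretch and 89.8 with the far end, so the excess at the far end is one against distance.

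Along the En1 domain the KR signal of the last lower bin fell from 313 in the first bin to 23.7 in the depleted bin at 122710001, where the bins on either side had 52.5 and 49.0. From there it rose to 127 at 123070001. The mean of the other 40 lower bins was 49.8 in the first bin and 33.2 at 123070001. The boundary bin rose to 203 in the last bin of the domain, while the En1 start bin had a distal peak of 624 at 123070001. The sharp peak of the En1 bin was thus not copied by the last lower bin, whose signal was 94.2, 110, 127 and 121 in the last 4 bins.

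**Figure D5:**
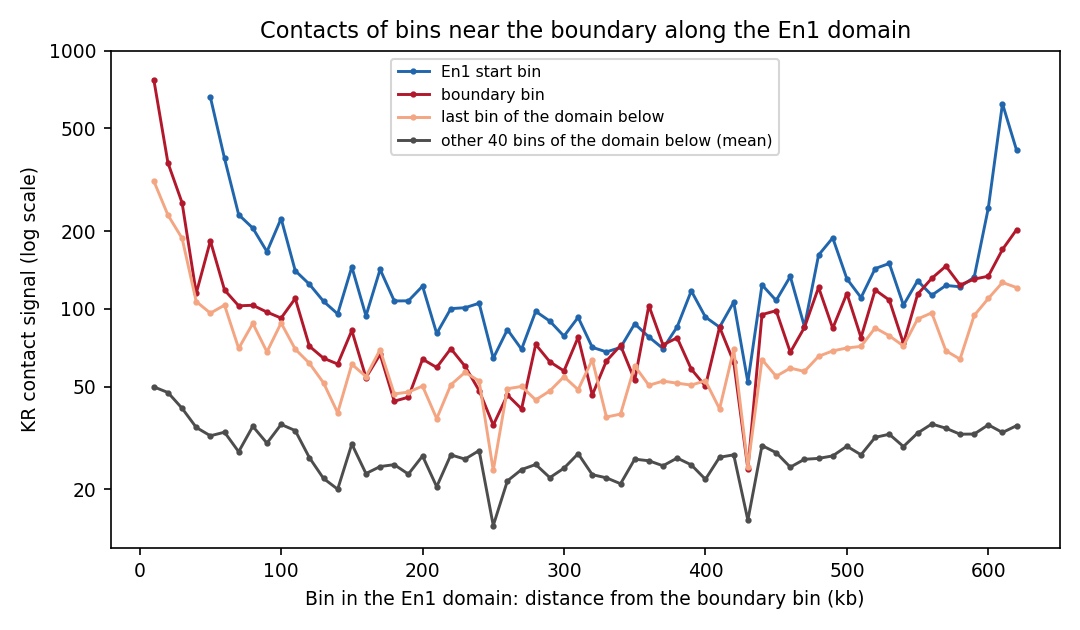
KR signal (log axis) along the En1 domain, by distance from the boundary bin (kb), for the En1 start bin, the boundary bin, the last bin of the lower domain and the mean of the other 40 lower bins; for the En1 start bin, the bins up to 40 kb from the boundary bin are left out. The En1 start bin has a distal peak of 624, the last lower bin rises to 127 at the same place, and the mean of the other lower bins is 33.2 there.

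The escapes named from the other clusters were much weaker than the strongest one and mostly single pairs. The C1ql2 start bin and the gene-free bin at 122910001, 680 kb apart, had 30 read pairs where 12.0 were expected, a ratio of 2.49 (1.68 to 3.56) that was 1.19 with an expected count from distance alone and 1.31 in 25 kb bins. The bins at 122170001, 0.719 kb from Steap3, and 122930001, 760 kb apart, had 13 where 4.60 were expected, a ratio of 2.82 (1.504 to 4.83) that rested on few read pairs and became 0.591 with distance alone and 1.11 in 25 kb bins. The 3110009E18Rik exon bin at 122060001 and the bin at 122810001 had 41 read pairs and a ratio of 1.87, or 1.23 in 25 kb bins. A Steap3 exon bin at 122120001 had 71 and a ratio of 1.68 with the bin at 122870001, which became 3.18 with distance alone and 1.04 in 25 kb bins. The bin at 122900001 had a ratio of 1.53 with the bin at 122260001, or 1.05 in 25 kb bins and 1.33 with distance alone. Both of these intervals reached below 1, to 0.888 and 0.939. With the bin at 122290001 the ratio was 1.57, or 0.939 in 25 kb bins and 0.991 with distance alone.

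Near the boundary on the En1 side, escapes came from the opposite end of the lower domain. The bin at 122060001 and the bin 122480001 to 122490000, 8.995 kb from En1, lay 420 kb apart and had 86 read pairs where 60.3 were expected, a ratio of 1.43 (1.14 to 1.76). Its cluster had 4 pairs. At 400 kb or less only 2 crossing pairs were called, both in that cluster and with the first bin of the En1 domain at 122470001. They are named here after their values were seen. The bin at 122080001, 390 kb away, had 69 read pairs where 47.6 were expected, a ratio of 1.45 (1.13 to 1.83). The bin at 122070001, 400 kb away, had 74 where 56.7 were expected, a ratio of 1.30 (1.02 to 1.64), and 55 of the 74 fell into 1 combination of 5 kb bins.

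Below the next boundary down, in the bin at 122040001, the contrast between near and far end was smaller. That boundary was weak, with a prominence of 0.249 and an insulation score of −0.473, against 1.63 and −1.47 for the one below En1. The 400 kb below it, from 121640001 to 122040000, hold 1 poorly covered bin and a further boundary in the bin at 121900001. They had O/E ratios of 0.546, 0.577, 0.627, 0.733 and 0.865 with the successive 100 kb stretches of the En1 domain and 1.08 (1.06 to 1.11) with the bins at 510 to 620 kb. The lower domain had 0.435, 0.461, 0.580, 0.784, 1.04 and 1.63 with the same stretches. It was thus lower than the 400 kb below with the near 300 kb of the En1 domain and higher from 310 kb on. The 400 kb below also lie farther from each stretch than the lower domain does, so these ratios compare unlike separations. The parts of both boundaries and of separation in this difference were not tested.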

How the data were processed

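The authors deposited 1 merged map in bins of 5, 10, 25 and 50 kb, as raw counts of read pairs and as a balanced signal, which they call KR. Per the deposited file names, HiCUP and a mapping quality minimum of 30 were applied. The submitters' processing notes list Bowtie2 2.3.4.1, Juicer 1.7.6 and SAMtools, with the mm9 build. Tables with 50 kb bins and probe positions were not used here.

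Balancing factors were recovered from raw counts and KR signal. Expected counts, exact Poisson intervals and calls were computed on 10 kb bins with Python 3.11.15, numpy 2.4.6 and scipy 1.17.1. Only the arithmetic was tested, on simulated counts drawn from the expected counts with known factors. Such counts vary by counting error alone, so they cannot show how real pairs spread beyond it. Boundaries were minima of the insulation score (150 kb window, prominence at least 0.2), and those compared were the well-covered ones with a prominence of at least 0.7. Named were gene start bins, the 3 highest and 3 lowest bins per side, the strongest pair of the 8 leading clusters and the 4 lowest pairs. Members, lists and rules were chosen with earlier results of these data known. Sequences and genes come from NCBIM37, the same assembly as mm9.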

Additional observations from a re-analysis of the deposited data

How the results depend on the processing

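Each setting below was changed alone. No paired analysis was possible because both samples form 1 group and only 1 merged map was used. For the same reason no sample could be left out. Ratios are judged against counting error, slopes against the error of the fit and counts of pairs by a change of over 1.5-fold, and the causes were not tested unless the construction shows them. The O/E ratio of 0.662 was 0.649 with 5 kb bins, 0.913 with an expected count from distance alone, 0.754 with medians per distance, 0.650 with crossing pairs left out of the expected count, 0.682 without the 3 bins next to the boundary on each side and 0.557 without the bins at 510 kb or more, the last being added after the values were seen. The crossing to inside ratio of 0.359 was 0.414 with distance alone, 0.372 with medians and 0.338 without the 3 bins. The far to near ratio of 3.50 was 3.34 with 5 kb bins, 3.36 with 25 kb bins, 2.51 with distance alone, 3.78 with medians, 3.62 without crossing pairs, 3.08 without poorly covered bins, 3.84 without the 3 bins and 2.60 without the bins at 510 kb or more. The slope of −0.49 was −0.61 on raw counts and −0.42 over 50 to 600 kb. The 368 pairs above expected became 628 with 5 kb bins and 86 with 25 kb bins, where the number of pairs differs by construction, 599 with distance alone, 48 without the bins at 510 kb or more, and 90 and 20 with a lower bound above 1.5 and 2. The 1165 pairs below expected became 2871 with 5 kb bins, 237 with 25 kb bins and 244 with an upper bound under 0.5. The class at 510 to 600 kb, at 0.890, was 1.05 with distance alone and with medians. The pair of 122170001 and 122930001 was 0.591 with distance alone, and that of 122290001 and 122900001 was 0.939 with 25 kb bins and 0.991 with distance alone. Of 48 settings of main results, 20 stayed within these limits, among them 508 pairs above expected with medians and 892 pairs below with distance alone. Of 60 settings of named and lowest pairs, 3 changed side.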
